A study of Mus musculus with 18 samples.

Results

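The matrix proteases and their inhibitors were the 50 genes, of 30172 measured, whose symbol places them among the matrix metalloproteinases (Mmp, 22 genes), the ADAMTS proteases (Adamts, 19 genes), the ADAMTS-like proteins (Adamtsl, 5 genes) or the tissue inhibitors of metalloproteinases (Timp, 4 genes). The rule used the symbol and no measured value, but the families were picked with earlier results of these data known. Whole ovaries came from wild-type C57BL/6J female offspring at postnatal day 3, 7 or 21 (Pd3, Pd7, Pd21). In the F1-HHcy groups the dams had eaten a diet with 3% methionine from 4 weeks before mating, by the labels, and through gestation and lactation, and in the F1-Control groups the dams had eaten normal chow. The methods of the study describe a longer feeding period before mating, and a standard diet with methionine added for the controls. All sires ate normal chow, and no pup was treated directly. Each of the 6 groups had 3 libraries, 18 in all, and the question at each age was whether ovarian RNA differed with the diet of the dam. By the labels, batch 1 held the 12 libraries of Pd3 and Pd7 and batch 2 the 6 of Pd21, so each diet comparison lay within 1 batch. Whether a library held 1 pup or several is not given, nor is the number of dams or litters behind the libraries of a group. The diet was given to the dam, and libraries of a group could come from littermates. The p-values therefore measure the spread between these libraries, which may not be that between dams.

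Matrix metalloproteinases are zinc endopeptidases that cut collagens, laminins and other matrix proteins, and most are made as inactive proenzymes. ADAMTS proteases share the zinc site and carry thrombospondin repeats. Some of them cut proteoglycans such as versican, some remove the amino-terminal propeptides of fibrillar procollagens, and some act on fibrillin microfibrils. ADAMTS-like proteins have the repeats without the protease domain. Tissue inhibitors of metalloproteinases (TIMPs) bind the active site of these enzymes. In the ovary the matrix is rebuilt as follicles form, grow and rupture, and proteases of these families are known from follicle walls, stroma and the ovulating follicle.

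Promoter sequence was at hand for 35 of the 50 members, as 38 windows in RefSeq's table for GRCm38.p6, each with 250 bases before and 50 after an annotated start. The letters searched on both strands were TGANTCA, the AP-1 site known from inducible metalloproteinase genes, TATAAA, the TATA box, and GGGCGG, the GC box. The AP-1 letters stood in 18.4% of the members' windows, against 7.81% of all 32851 windows of this length. All of these windows belonged to Mmp genes (35.0% of 20 Mmp windows), namely Mmp1b, Mmp3, Mmp7, Mmp10, Mmp12, Mmp13 and Mmp20, which lie close together on chromosome 9, and none of the 14 Adamts and Adamtsl windows held them. TATAAA stood in 45.0% of the Mmp windows and 14.3% of the Adamts and Adamtsl windows, against 13.6% of all windows. GGGCGG stood in 85.7% of the Adamts and Adamtsl windows, 75.0% of the 4 Timp windows and 35.0% of the Mmp windows, against 35.7% of all. No matches overlapped in the windows shown. The windows of 4 genes on which the results turn are printed to show these differences, read 5′ to 3′ along the gene, with the matched letters in capitals. Adamtsl2 (chr2:27079129-27079428, plus strand) has TATAAA with its first base 30 bases before the start and 1 GC box, Adamts2 (chr11:50601835-50602134, plus strand) has 5 GC boxes, Mmp7 (chr9:7691840-7692139, plus strand, the first of its 2 windows) has the AP-1 letters and TATAAA at 2 places, and Timp4 (chr6:115252156-115252455, minus strand) has none of the 3.
Adamtsl2: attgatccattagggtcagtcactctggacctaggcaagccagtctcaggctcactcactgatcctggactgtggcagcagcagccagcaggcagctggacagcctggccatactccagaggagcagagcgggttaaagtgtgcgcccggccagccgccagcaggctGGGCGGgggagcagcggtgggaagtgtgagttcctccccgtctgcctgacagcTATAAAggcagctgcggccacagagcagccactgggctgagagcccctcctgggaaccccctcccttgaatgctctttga
Adamts2: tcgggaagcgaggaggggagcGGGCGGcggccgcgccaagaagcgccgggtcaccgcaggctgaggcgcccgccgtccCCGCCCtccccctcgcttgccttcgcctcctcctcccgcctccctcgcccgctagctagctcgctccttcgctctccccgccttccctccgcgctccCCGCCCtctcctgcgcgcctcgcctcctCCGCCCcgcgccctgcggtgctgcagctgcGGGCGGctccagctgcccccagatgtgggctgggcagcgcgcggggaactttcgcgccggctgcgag
Mmp7: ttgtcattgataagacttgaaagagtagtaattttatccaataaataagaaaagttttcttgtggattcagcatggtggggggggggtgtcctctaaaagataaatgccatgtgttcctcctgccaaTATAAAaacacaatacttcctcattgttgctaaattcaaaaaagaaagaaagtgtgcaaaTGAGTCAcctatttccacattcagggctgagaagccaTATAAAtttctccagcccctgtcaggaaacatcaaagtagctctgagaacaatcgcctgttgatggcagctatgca
Timp4: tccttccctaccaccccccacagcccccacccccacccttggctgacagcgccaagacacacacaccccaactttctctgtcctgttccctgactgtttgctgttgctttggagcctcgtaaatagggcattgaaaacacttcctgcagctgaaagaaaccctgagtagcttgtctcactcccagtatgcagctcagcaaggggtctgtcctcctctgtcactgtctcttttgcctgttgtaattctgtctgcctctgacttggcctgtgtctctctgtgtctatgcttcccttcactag
These matches describe the letters in the windows and are no evidence of binding, and the windows were not part of the counting.

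The deposited values were FPKM (fragments scaled by gene length and by the fragments counted in the library), 1 per gene symbol and library. They could be turned back into whole fragments, 33630487 to 39399184 per library. Statistics were limited to genes that reached 1 FPKM in 3 or more of the 18 libraries, which 14607 genes and 33 of the 50 members met (11 of 22 Mmp, 14 of 19 Adamts, 4 of 5 Adamtsl and all 4 Timp). Granulosa cell and oocyte markers were above 0 in every group, as an ovary label requires, with summed levels of 211 to 1495 FPKM for 6 granulosa genes and 390 to 1089 FPKM for 6 oocyte genes. These are bulk libraries, in which fewer cells of a type and less RNA per cell cannot be told apart.

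RNA of the family was concentrated in few genes. Mmp2, the gelatinase that cuts denatured collagen and basement membrane collagen, had the highest mean over the 18 libraries (86.7 FPKM). Mmp14, the membrane-bound protease that activates the Mmp2 proenzyme, followed with 72.0 FPKM, and Timp2, which takes part in that activation and also inhibits, with 61.6 FPKM. These 3 genes carried 42.85% of the summed FPKM of the 50 members. Mmp11 had 45.5 FPKM, Timp3 43.8, Adamts10 37.2, Adamts2 26.7, Timp1 25.9, Mmp23 25.2 and Adamts19 20.7, and the first 10 together carried 86.58%. Of the 17 members that were not tested, Adamts15 reached 1 FPKM in 1 library (2.01 FPKM) and the other 16 in none. They included the gelatinase Mmp9 (at most 0.797 FPKM), the collagenase Mmp13 (at most 0.0976 FPKM), the stromelysins Mmp3 and Mmp10 and the macrophage elastase Mmp12 (at most 0.44 FPKM). The 9 Mmp genes of chromosome 9 stand in runs of 4 and 5 neighbours in RefSeq. Of these only Mmp7 and Mmp8 were tested. In GENCODE M21, exons of Mmp7, Mmp11, Mmp19, Mmp28, Adamts4, Adamts7, Adamts8, Adamts9, Timp3 and Timp4 overlap exons of a gene on the opposite strand, and the strand setting of the counting is not given in the sources used here, so reads from such a partner could be included.

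**Figure D1:**
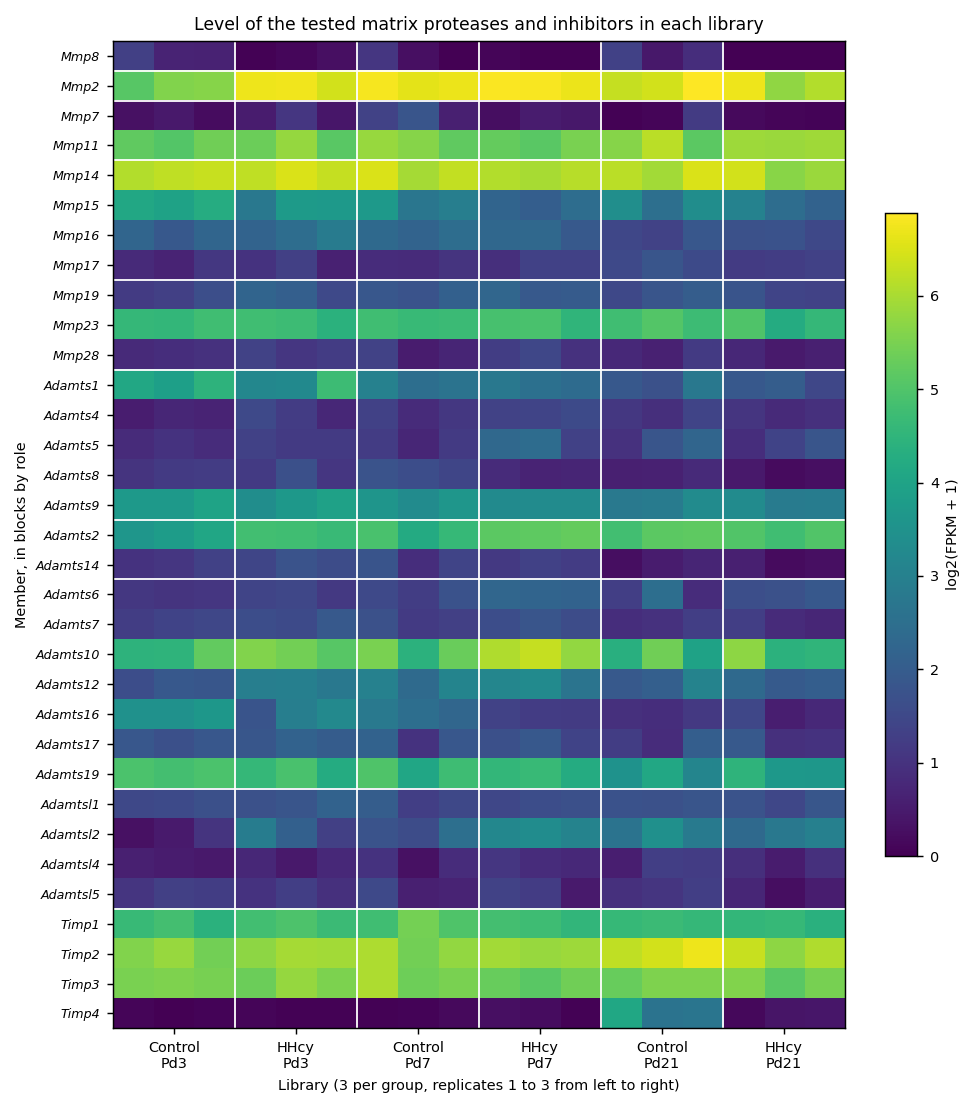
Levels of the 33 tested members in the 18 libraries, as log2(FPKM + 1) on the colour scale, with genes in rows in blocks by role and libraries in columns, 3 per group. Mmp2, Mmp14, Mmp11, Timp2 and Timp3 are bright in every library, while Timp4 stands out from dark only in the 3 F1-Control libraries of Pd21.

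Diets were compared on each day with limma on log2(FPKM + 1), 3 libraries against 3. The call was the criterion printed by the study, a log2 fold change beyond 0.58 in either direction together with p under 0.05 before adjustment, and adjusted p-values are over all 14607 genes. An exact permutation test of 3 against 3 cannot go below 0.1, so none was used for single genes. A fold change on the log2(FPKM + 1) scale understates the change of a low gene.

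At Pd3, 5 of the 33 tested members were higher in F1-HHcy ovaries, namely Mmp2, Adamts2, Adamts12, Adamts10 and Adamtsl2, and 3 were lower, namely Mmp8, Mmp15 and Adamts16. Of all genes tested, 5.37% were called higher and 4.33% lower. Mmp2, Adamts2 and Adamts12 also had an adjusted p under 0.05, which 1.86% of all genes had in either direction. The diet groups did not overlap in 42.4% of the tested members and in 27.9% of all genes. The median log2 fold change of the tested members was 0.20, with 25 positive and 8 negative, against -0.01 for all genes, of which 48.0% were positive. Without Timp4, which passed the filter only through 3 libraries of another day, the members' median was 0.23.

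Mmp2 RNA rose 2.28-fold at Pd3. The F1-Control libraries had 33.4, 47.3 and 48.5 FPKM and the F1-HHcy libraries 105, 105 and 85.0 FPKM. Every F1-HHcy library lay above every F1-Control library. The means were 43.1 ± 8.41 and 98.3 ± 11.5 FPKM (SD, n = 3), and the log2 fold change was 1.18 (SE 0.17, adjusted p = 0.0279).

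Adamts2, the main procollagen amino-terminal proteinase, rose 1.96-fold at Pd3. F1-Control libraries had 11.2, 12.9 and 15.7 FPKM and F1-HHcy libraries 27.0, 26.5 and 24.6 FPKM (log2 fold change 0.93, SE 0.13, adjusted p = 0.0286). The groups were separated by more than the range of either. Adamts14, the other tested procollagen proteinase, went from 1.23 ± 0.27 to 2.06 ± 0.35 FPKM and was not called (log2 fold change 0.46, SE 0.15).

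Adamts12, a protease of cartilage oligomeric matrix protein, rose 2.62-fold at Pd3. Its F1-Control libraries had 2.08, 2.75 and 2.57 FPKM and its F1-HHcy libraries 6.77, 6.89 and 5.77 FPKM. The log2 fold change was 1.11 (SE 0.14, adjusted p = 0.0248), the smallest adjusted p of the members on that day. Its relative Adamts7 had 1.60 ± 0.20 and 2.26 ± 0.46 FPKM and was not called. With 1 library left out, Mmp2, Adamts2 and Adamts12 were called in all 6 fits, while the adjusted p stayed under 0.05 in 1, 2 and 1 of them, respectively.

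Adamtsl2, which binds fibrillin and is linked to the control of transforming growth factor beta, was called higher at Pd3. F1-Control libraries had 0.243, 0.420 and 1.05 FPKM (33, 58 and 142 fragments). F1-HHcy libraries had 6.45, 3.30 and 1.49 FPKM (902, 457 and 198 fragments). The groups did not overlap, and the 3 F1-HHcy libraries were spread widely. The means differed 6.57-fold, and the log2 fold change was 1.49 (SE 0.39, adjusted p = 0.0969), or 2.48 with a pseudocount of 0.1. Adamts10, which acts on fibrillin microfibrils, had 21.0, 21.4 and 36.7 FPKM in F1-Control and 46.5, 42.0 and 33.0 FPKM in F1-HHcy. The highest F1-Control library lay above the lowest F1-HHcy library, the log2 fold change was 0.63 (SE 0.23, adjusted p = 0.177), and the call was lost in 4 of the 6 fits with 1 library left out (log2 fold change down to 0.50 without F1-Control replicate 1).

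Beside these rises, the 6 markers of mesenchyme and stroma (among them Pdgfra, Dcn and Col1a1) were all called higher at Pd3, and their summed level was 366 to 507 FPKM in F1-Control and 685 to 902 FPKM in F1-HHcy. No marker of the list was at 0. Endothelial markers were called higher in 4 of 6 cases, with sums of 37.8 to 53.3 against 66.9 to 97.1 FPKM. Granulosa markers were called higher in 3 of 6 cases (211 to 223 against 277 to 506 FPKM). Of the 6 oocyte markers, 2 were called higher and 2 lower (392 to 484 against 554 to 765 FPKM in sum). Adipocyte markers were called higher in 2 of 4 tested cases, and smooth muscle and pericyte markers in 2 of 6. No macrophage marker was called (26.3 to 32.2 against 35.7 to 38.6 FPKM in sum). Of the 5 surface epithelium markers, 1 was called lower. The 6 erythroid markers were all called lower, with sums of 3914 to 11214 FPKM in F1-Control and 780 to 1108 FPKM in F1-HHcy. All marker lists were chosen with earlier results of these data known. The part of these differences in the values of the proteases was not tested.

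Adamts16, a protease of the developing gonad, fell at Pd3. F1-Control libraries had 10.1, 10.1 and 11.6 FPKM and F1-HHcy libraries 2.43, 6.74 and 8.38 FPKM. All 3 F1-HHcy libraries were lower, and replicate 1 by far the most. The log2 fold change was -0.88 (SE 0.35, adjusted p = 0.204), and it was -0.44 when F1-HHcy replicate 1 was left out. Mmp15, a membrane-type metalloproteinase, had 16.6, 14.7 and 18.2 FPKM in F1-Control and 5.71, 12.6 and 12.1 FPKM in F1-HHcy. Here too F1-HHcy replicate 1 was the lowest library, and the log2 fold change was -0.72 (SE 0.27, adjusted p = 0.187) with it and -0.39 without it. The call of Adamts16 was lost when any of F1-Control replicates 1, 2 and 3 or F1-HHcy replicate 1 was left out, and that of Mmp15 without F1-Control replicate 1 or 3 or F1-HHcy replicate 1.

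Mmp8, the collagenase of neutrophils, was low throughout. At Pd3 it had 1.46, 0.614 and 0.592 FPKM in F1-Control (126, 54 and 51 fragments) and 0.0225, 0.0910 and 0.225 FPKM in F1-HHcy (2, 8 and 19 fragments). The groups did not overlap (log2 fold change -0.74, SE 0.19, adjusted p = 0.0957). The value was -2.22 with a pseudocount of 0.1, and the call was lost without F1-Control replicate 1 (-0.53). Mmp8 passed the filter through 3 libraries only, all of them F1-Control, so that a difference in this direction was favoured. The 10 granulocyte markers had a summed level of 299.7 to 1141 FPKM in the same F1-Control libraries and 8.83 to 152 FPKM in F1-HHcy, and 6 of the 8 tested markers were called lower. Their part in the Mmp8 values was not tested.

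**Figure D2:**
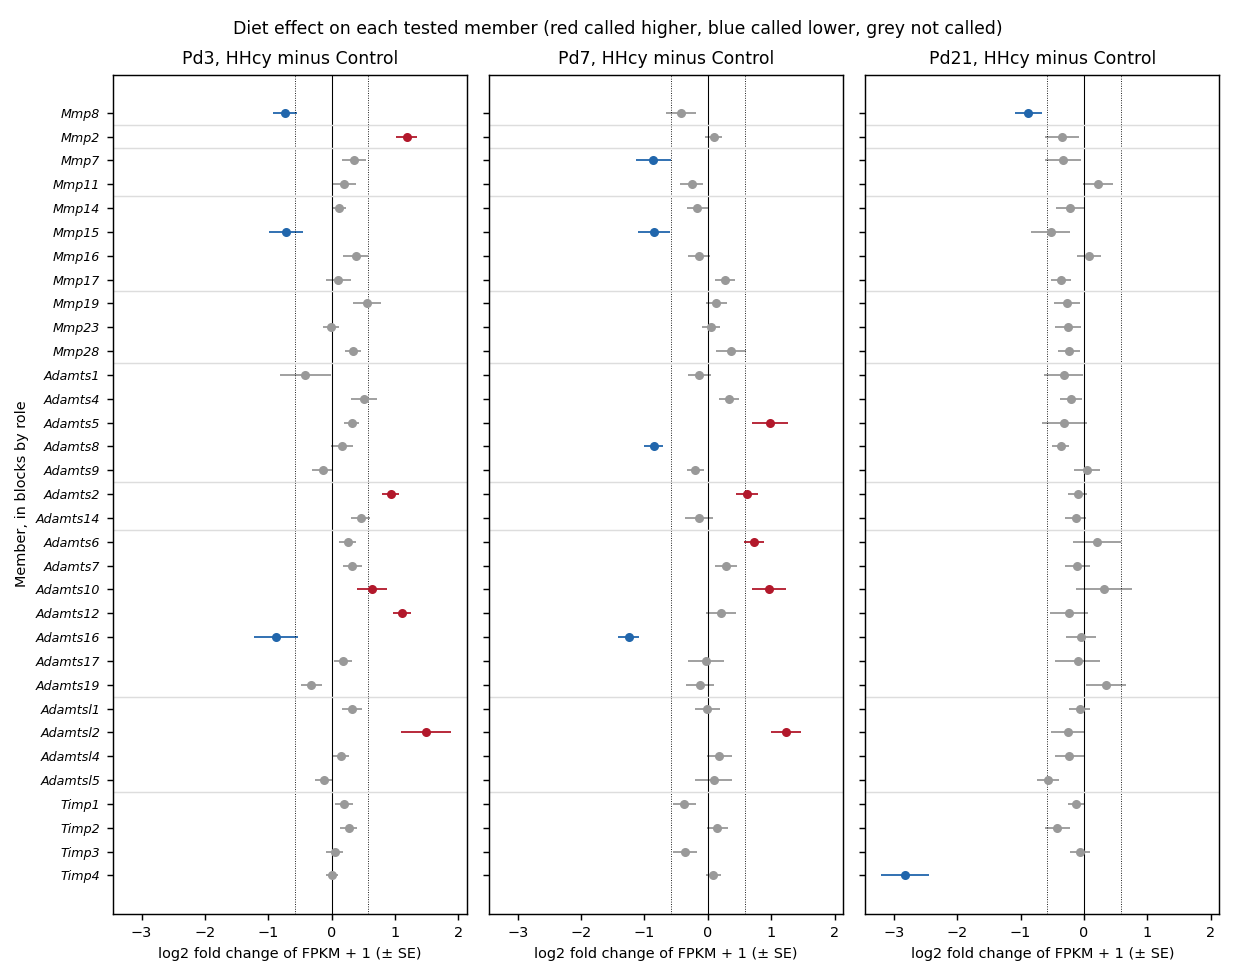
Diet effect on each of the 33 tested members at Pd3, Pd7 and Pd21, as log2 fold change of FPKM + 1 (F1-HHcy minus F1-Control) with its SE as the bar. Dotted lines mark 0.58 in either direction, red points were called higher and blue points lower, and 5, 5 and 0 members were called higher against 3, 4 and 2 lower.

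At Pd7, 5 of the 33 tested members were again called higher and 4 lower, against 8.57% and 7.53% of all genes. The higher members were Adamts2, Adamts10, Adamtsl2, Adamts5 and Adamts6, all of them ADAMTS or ADAMTS-like, and the lower members were Adamts16, Adamts8, Mmp15 and Mmp7. Adamts6, Adamts8, Adamts16 and Adamtsl2 had an adjusted p under 0.05, as had 10.5% of all genes. The diet groups did not overlap in 30.3% of the tested members, which is below the 38.8% of all genes. The median log2 fold change was 0.05 for the tested members (17 positive, 16 negative) and -0.01 for all genes, of which 49.3% were positive. Adamts2, Adamts10 and Adamtsl2 were called higher on both early days, and Adamts16 and Mmp15 lower on both.

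Adamtsl2 had 2.41, 2.03 and 4.76 FPKM in F1-Control and 8.03, 9.23 and 7.44 FPKM in F1-HHcy at Pd7. The groups did not overlap, and the means differed 2.68-fold (log2 fold change 1.24, SE 0.24, adjusted p = 0.0169). Adamts10 had 44.2, 20.4 and 38.6 FPKM in F1-Control and 66.1, 77.1 and 53.5 FPKM in F1-HHcy, a 1.91-fold difference (log2 fold change 0.97, SE 0.27, adjusted p = 0.053). Adamts6, a relative of Adamts10 that also acts on fibrillin microfibrils, had 1.89, 1.37 and 2.30 FPKM against 3.85, 3.69 and 3.50 FPKM (log2 fold change 0.73, SE 0.16, adjusted p = 0.0286). In each of these 3 genes all F1-HHcy libraries lay above all F1-Control libraries. The third fibrillin-related protease, Adamts17, had 2.40 ± 1.27 and 2.19 ± 0.54 FPKM and was not called.

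Adamts2 had 29.0, 17.6 and 23.5 FPKM in F1-Control and 34.5, 35.3 and 37.5 FPKM in F1-HHcy at Pd7 (log2 fold change 0.62, SE 0.18, adjusted p = 0.0574). The groups did not overlap, and the call was lost without F1-Control replicate 2 (0.44). Adamts5, an aggrecanase that also cuts versican, had 1.34, 0.683 and 1.25 FPKM against 4.02, 4.37 and 1.54 FPKM (log2 fold change 0.98, SE 0.28, adjusted p = 0.0583), with 1 F1-HHcy library close to the F1-Control range. Mmp2, which had risen at Pd3, had 110, 95.4 and 102 FPKM in F1-Control and 114, 112 and 102 FPKM in F1-HHcy at Pd7 (log2 fold change 0.09, SE 0.13). Adamts12 had 6.30 ± 1.86 and 7.37 ± 1.82 FPKM, and neither gene was called.

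Adamts16 had 5.84, 4.64 and 3.80 FPKM in F1-Control and 1.56, 1.35 and 1.29 FPKM in F1-HHcy at Pd7. The F1-HHcy libraries lay close together and far below F1-Control. The mean in F1-HHcy was 0.294 times that in F1-Control (log2 fold change -1.25, SE 0.17, adjusted p = 0.00628). Adamts8, an ADAMTS protease with aggrecan-cleaving activity, had 2.37, 2.10 and 1.71 FPKM against 0.794, 0.619 and 0.638 FPKM (log2 fold change -0.86, SE 0.14, adjusted p = 0.0116). For these 2 genes the adjusted p stayed under 0.05 in all 6 fits with 1 library left out, against 1 of 6 for Adamts6 and 2 of 6 for Adamtsl2.

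Mmp15 had 11.9, 5.48 and 6.68 FPKM in F1-Control and 3.67, 3.20 and 4.54 FPKM in F1-HHcy at Pd7 (log2 fold change -0.86, SE 0.25, adjusted p = 0.062). The groups did not overlap, and the value was -0.56 without F1-Control replicate 1, which ended the call. Mmp7, a small secreted protease of epithelia, had 1.58, 2.51 and 0.515 FPKM against 0.184, 0.427 and 0.363 FPKM (log2 fold change -0.86, SE 0.27, adjusted p = 0.0737), or -1.76 with a pseudocount of 0.1. Its fragments numbered 63, 99 and 21 against 7, 16 and 15. Mmp7 passed the filter through 4 libraries, among them F1-Control replicates 1 and 2 of Pd7, so a difference in this direction was favoured. Surface epithelium markers were called lower in 3 of 5 cases on that day, with sums of 418 to 691 FPKM in F1-Control and 184 to 362 FPKM in F1-HHcy. All 5 theca and steroid markers were called higher, with sums of 216 to 446 against 1130 to 1181 FPKM. Of the 6 oocyte markers, 5 were called lower (607 to 1068 against 390 to 693 FPKM in sum), as were 5 of the 6 erythroid markers (925 to 5760 against 287 to 502 FPKM). Granulosa markers were called higher in 3 of 6 cases (245 to 506 against 501 to 871 FPKM). Of the 6 mesenchyme and stroma markers, 1 was called higher and 1 lower. Their sums overlapped (826 to 1022 against 564 to 973 FPKM), unlike at Pd3. Endothelial markers were called higher in 1 of 6 cases (77.1 to 91.3 against 91.9 to 100 FPKM). Whether these cell types bear on the protease values was not tested.

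**Figure D3:**
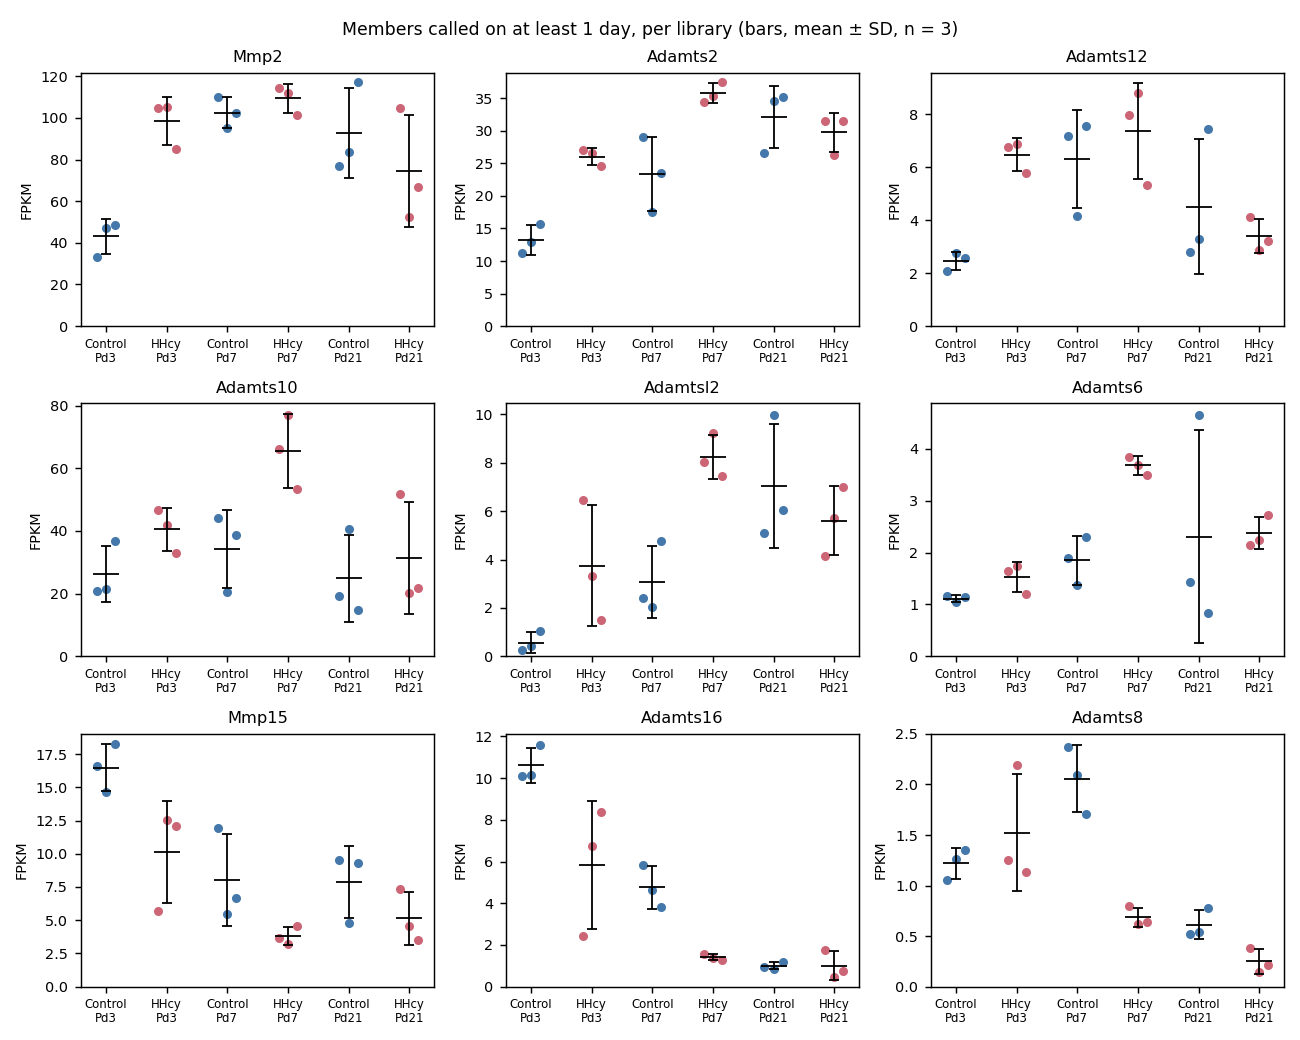
FPKM per library of 9 members called on at least 1 day, in the 6 groups, with blue points for F1-Control, red points for F1-HHcy and bars for mean ± SD (n = 3). Mmp2, Adamts2 and Adamts12 separate by diet at Pd3 and overlap at Pd21. Adamts16 falls from Pd3 to Pd7 in both diets, with means of 10.6 and 4.76 FPKM in F1-Control and 5.85 and 1.40 FPKM in F1-HHcy.

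At Pd21, 0 of the 33 tested members were called higher and 2 lower, against 0.0822% and 4.83% of all genes. By limma, 0 members had a positive change at an unadjusted p under 0.05 and 5 had a negative one. Among these 5 are Timp4 and Mmp8, for which the filter favoured this direction. The share of all genes at the unadjusted threshold is not given, so nothing is read from this count. Voom on the recovered fragments also called 0 higher. The 2 lower members were Timp4 and Mmp8, and Timp4 alone had an adjusted p under 0.05, as had 1.94% of all genes. The diet groups did not overlap in 15.2% of the tested members (12.5% without Timp4) and in 10.6% of all genes. Changes were negative for 27 members and positive for 6, with a median of -0.23. Of all genes, 47.7% were positive, with a median of -0.01. Without Timp4, 26 members were negative and 6 positive, and the members' rounded median was still -0.23. The counts lean on 2 libraries, since 5 members were called lower without F1-HHcy replicate 1, and 4 lower and 1 higher without F1-Control replicate 2. None of the members that were higher at Pd3 or Pd7 was called at Pd21. Adamts2, for example, had 26.6, 34.6 and 35.2 FPKM in F1-Control and 31.5, 26.3 and 31.4 FPKM in F1-HHcy.

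Timp4, an inhibitor of restricted tissue distribution, was near 0 in all groups but 1. The F1-Control libraries of Pd21 had 16.2, 5.21 and 5.37 FPKM (1855, 583 and 618 fragments) and the F1-HHcy libraries of Pd21 had 0.104, 0.317 and 0.328 FPKM (11, 36 and 38 fragments). The 12 libraries of Pd3 and Pd7 had at most 0.209 FPKM. The log2 fold change at Pd21 was -2.82 (SE 0.38, adjusted p = 0.0113), or -4.56 with a pseudocount of 0.1, and the adjusted p stayed under 0.05 in 4 of 6 fits with 1 library left out and was 0.0564 and 0.06 when F1-HHcy replicate 2 or replicate 1 was the library left out. Timp4 had to differ by passing the filter, since only those 3 F1-Control libraries reached 1 FPKM.

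The same 3 F1-Control libraries of Pd21 held RNA of other cell types. The 6 oviduct and multiciliated markers had summed levels of 424, 93.0 and 472 FPKM there and 10.3, 4.99 and 5.98 FPKM in the F1-HHcy libraries of Pd21, and all 6 were called lower in F1-HHcy. Ovgp1, an oviduct glycoprotein, had 216, 37.5 and 365 FPKM against 2.10, 0.370 and 1.12 FPKM. Adipocyte markers had sums of 54.4, 22.9 and 280 FPKM against 45.0, 11.2 and 5.64 FPKM, with 3 of the 4 tested called lower, and all 5 surface epithelium markers were called lower (307 to 420 against 99.8 to 207 FPKM). The part of these cells in the Timp4 values was not tested. Exons of Timp4 overlap exons of Syn2 on the opposite strand in GENCODE M21, and Syn2 had 0.391 to 0.468 FPKM in F1-Control and 0.428 to 0.573 FPKM in F1-HHcy at Pd21.

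Mmp8 had 1.52, 0.365 and 0.855 FPKM (145, 34 and 82 fragments) in F1-Control and 0.0113, 0.0106 and 0 FPKM (1, 1 and 0 fragments) in F1-HHcy at Pd21. The groups did not overlap, and the fitted log2 fold change, -0.88 (SE 0.21, adjusted p = 0.13), was -3.06 with a pseudocount of 0.1, so no fold is given. Granulocyte markers summed to 8.99 to 19.9 FPKM in F1-Control and 2.68 to 8.04 FPKM in F1-HHcy, and 1 of the 8 tested was called lower. Most of the F1-Control sums at Pd21 came from Ltf (lactoferrin, also made by secretory epithelia), which had 5.20 to 18.4 FPKM in F1-Control and 0.0809 to 0.204 FPKM in F1-HHcy. The other 9 markers summed to 1.49 to 3.79 FPKM in F1-Control and 2.47 to 7.94 FPKM in F1-HHcy, so these sums overlapped and were not lower in F1-HHcy. At Pd7 Mmp8 had 1.12, 0.208 and 0.0111 FPKM against 0.0717, 0 and 0 FPKM and was not called.

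**Figure D4:**
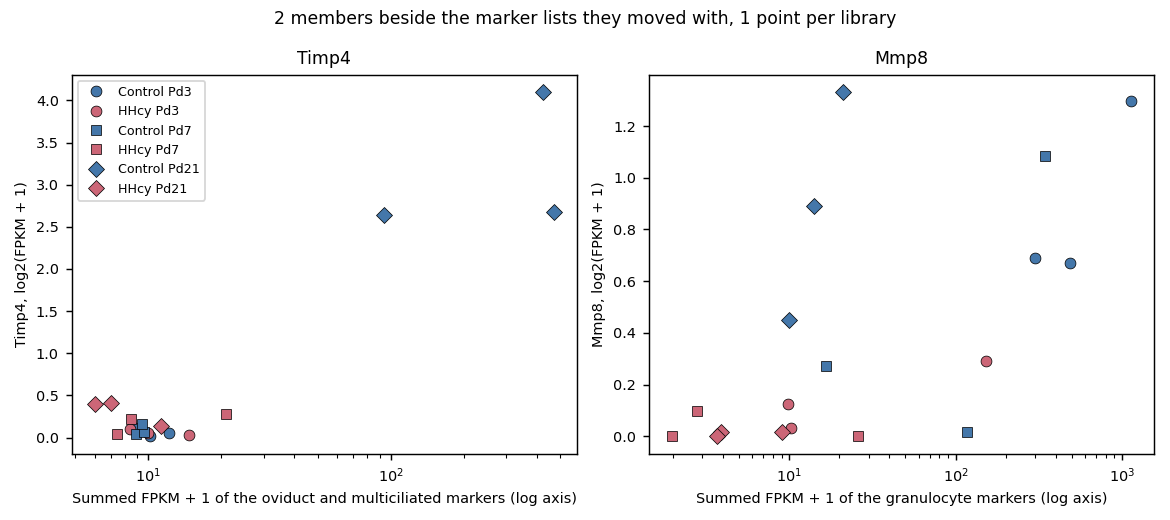
Level of Timp4 against the summed oviduct and multiciliated markers, and of Mmp8 against the summed granulocyte markers, 1 point per library, with log2(FPKM + 1) on the vertical axis and summed FPKM + 1 on a log axis. The 3 F1-Control libraries of Pd21 lie apart from the other 15 in both Timp4 and its marker sum, while for Mmp8 they lie at 0.365 to 1.52 FPKM with marker sums of 8.99 to 19.9 FPKM, of which Ltf alone gave 5.20 to 18.4 FPKM.

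The other 3 inhibitors did not differ by diet under this criterion on any day. Timp1, a secreted inhibitor, had 23.7 ± 3.72 and 27.1 ± 2.73 FPKM at Pd3 (log2 fold change 0.19, SE 0.14), 33.3 ± 8.20 and 25.1 ± 2.76 at Pd7 (-0.37, SE 0.18) and 23.9 ± 0.911 and 22.0 ± 2.12 at Pd21 (-0.12, SE 0.13). Timp2 had changes of 0.27 (SE 0.13), 0.15 (SE 0.17) and -0.42 (SE 0.20) on the 3 days, and at Pd21 its libraries had 73.5, 84.7 and 104 FPKM in F1-Control against 78.7, 51.1 and 66.2 FPKM in F1-HHcy. Timp3, which is bound to the matrix and also inhibits ADAMTS aggrecanases, had changes of 0.05 (SE 0.13), -0.36 (SE 0.19) and -0.06 (SE 0.16). In each of these 9 comparisons the groups overlapped. The summed FPKM of the 4 inhibitors was 105 to 129 in F1-Control and 118 to 146 in F1-HHcy at Pd3, and 124 to 156 and 116 to 126 at Pd7. At Pd21 it was 151, 161 and 178 FPKM in F1-Control and 148, 109 and 130 FPKM in F1-HHcy, which did not overlap. The F1-Control sums of Pd21 include Timp4, at up to 16.2 FPKM. Without Timp4 the sums of the diets overlap, so nothing is read from this separation. The sum was not tested.

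**Figure D5:**
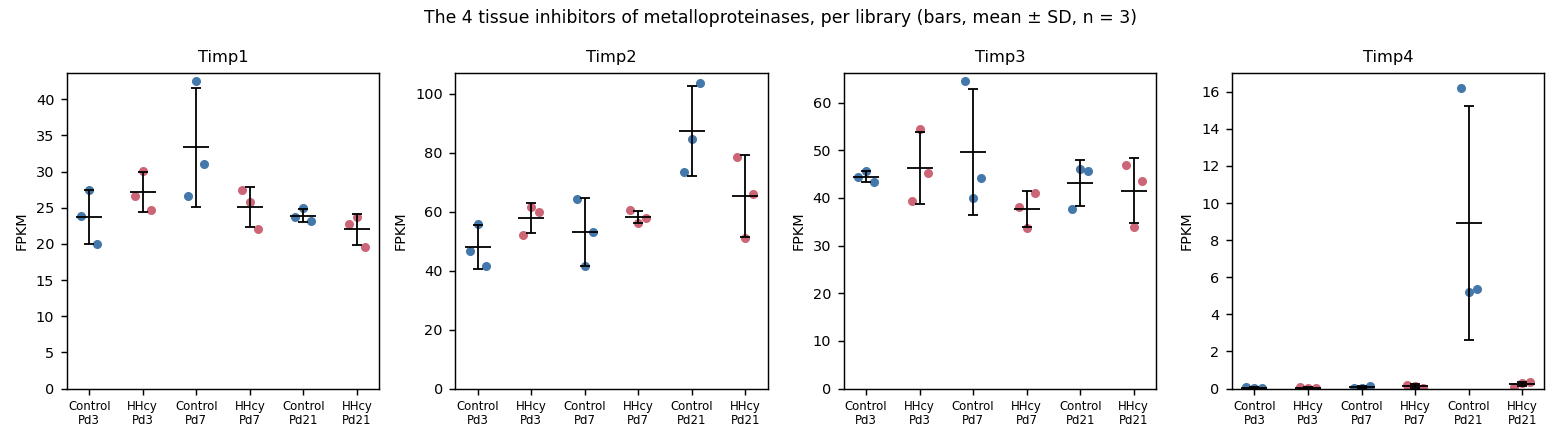
FPKM per library of Timp1, Timp2, Timp3 and Timp4 in the 6 groups, with blue points for F1-Control, red points for F1-HHcy and bars for mean ± SD (n = 3). Timp1 to Timp3 overlap between the diets on every day, whereas Timp4 is at 5.21 to 16.2 FPKM in F1-Control at Pd21 and at 0.328 FPKM or less in all other groups.

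Several abundant proteases were likewise not called on any day. Mmp14 had 73.3 ± 5.28 and 80.1 ± 8.30 FPKM at Pd3 (log2 fold change 0.12, SE 0.11), -0.16 (SE 0.16) at Pd7 and -0.22 (SE 0.23) at Pd21. Mmp11, a metalloproteinase already active when secreted, ranged from 32.2 to 71.2 FPKM over the 18 libraries, with changes of 0.20, -0.25 and 0.22. Mmp23, an integral membrane protein known from the ovary, ranged from 17.8 to 31.8 FPKM, and its changes were -0.01 (SE 0.13), 0.05 (SE 0.15) and -0.25 (SE 0.20). Adamts19 had 28.9 ± 1.13 and 23.3 ± 5.53 FPKM at Pd3 (-0.32, SE 0.17), and Adamts9, a widely expressed protease of versican, 13.0 ± 1.58 and 11.8 ± 2.50 FPKM (-0.14, SE 0.17). Among lower members, Mmp16, Mmp17, Mmp19 and Mmp28 were not called on any day, nor were Adamts4, Adamtsl1, Adamtsl4 and Adamtsl5. Mmp19 (0.55, SE 0.22) and Adamts4 (0.51, SE 0.20) at Pd3 lay below the threshold of 0.58 and were called higher with a pseudocount of 0.1.

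Between Pd3 and Pd7 in F1-Control ovaries, which share a batch, 5 tested members rose and 3 fell, against 6.76% and 6.89% of all genes, and 7 had an adjusted p under 0.05, against 11.4% of all genes. These libraries are also used in the diet comparisons above, so the values are set side by side without a test between the comparisons. Mmp2 rose from 43.1 ± 8.41 to 102.5 ± 7.35 FPKM (log2 fold change 1.25, SE 0.21, adjusted p = 0.00231), and its F1-HHcy libraries of Pd3 had 85.0 to 105 FPKM. Adamts2 rose from 13.3 ± 2.28 to 23.4 ± 5.71 FPKM (0.76, SE 0.16, adjusted p = 0.00915), with 24.6 to 27.0 FPKM in F1-HHcy at Pd3. Adamts12 rose from 2.47 ± 0.35 to 6.30 ± 1.86 FPKM (1.04, SE 0.26, adjusted p = 0.0197), with 5.77 to 6.89 FPKM in F1-HHcy at Pd3. For these 3 genes the range of the F1-HHcy libraries of Pd3 thus overlapped that of the F1-Control libraries of Pd7 (95.4 to 110, 17.6 to 29.0 and 4.17 to 7.54 FPKM).

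Adamtsl2 rose from 0.570 ± 0.42 to 3.07 ± 1.48 FPKM with age in F1-Control (1.35, SE 0.34, adjusted p = 0.0203), and from 3.75 ± 2.51 to 8.24 ± 0.91 FPKM in F1-HHcy (1.10, SE 0.34, adjusted p = 0.0658). Mmp7 rose in F1-Control from 0.261 ± 0.10 to 1.54 ± 1.00 FPKM (0.93, SE 0.30, adjusted p = 0.0528), and without F1-Control Pd7 replicate 2 it was not called (0.65). This rise was favoured by the filter, which Mmp7 passed through 4 libraries, among them F1-Control Pd7 replicates 1 and 2. Adamts16 fell in F1-Control (-1.02, SE 0.29, adjusted p = 0.033) and in F1-HHcy (-1.39, SE 0.29, adjusted p = 0.0174), to 1.40 ± 0.14 FPKM in the latter. Mmp15 fell in F1-Control (-1.01, SE 0.31, adjusted p = 0.045) and in F1-HHcy (-1.15, SE 0.31, adjusted p = 0.0428).

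Adamts1, the protease induced in ovulating follicles, fell with age in F1-Control. Its libraries had 16.4, 13.7 and 20.8 FPKM at Pd3 and 7.12, 4.57 and 5.13 FPKM at Pd7 (-1.44, SE 0.34, adjusted p = 0.015). In F1-HHcy they had 8.05, 8.70 and 25.5 FPKM at Pd3 and 5.74, 4.82 and 4.35 FPKM at Pd7 (-1.16, SE 0.34, adjusted p = 0.0571). At Pd3 the F1-HHcy libraries of Adamts1 thus lay on both sides of F1-Control, and no diet effect was called. In F1-HHcy, 3 tested members rose with age (Adamtsl2, Adamts5 and Adamts6) and 3 fell (Mmp15, Adamts1 and Adamts16), against 5.76% and 6.03% of all genes. With an adjusted p under 0.05 there were 3 members (Mmp15, Adamts8 and Adamts16), against 5.48% of all genes.

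Whether the diet effect differed between days was tested in 1 model of all 18 libraries. Between Pd7 and Pd3, 0 of the 33 tested members had an adjusted p under 0.05, against 0.411% of all genes. By limma, 5 members had an unadjusted p under 0.05, all with a lower effect at Pd7 (Mmp2, Mmp7, Adamts8, Adamts12 and Timp1). The share of all genes at this unadjusted threshold is not given, so nothing is read from the count. With voom, 0 members passed the adjusted threshold. The difference was -1.09 (SE 0.30, adjusted p = 0.126) for Mmp2 and -1.02 (SE 0.22, adjusted p = 0.0569) for Adamts8. Between Pd21 and Pd3, 5 members differed (Mmp2, Adamts2, Adamts12, Adamtsl2 and Timp4), against 4.59% of all genes. The diet effect of Mmp2 was 1.53 lower at Pd21 on the log2 scale (SE 0.30, adjusted p = 0.00623), and that of Adamts2 was 1.03 lower (SE 0.23, adjusted p = 0.0141). Between Pd21 and Pd7, 1 member (Timp4) had an adjusted p under 0.05, against 3.89% of all genes. Timp4 passed the filter only through its 3 F1-Control libraries of Pd21, so its part in both counts was favoured by the filter and nothing is read from it. Where Pd21 takes part, age and batch cannot be told apart.

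Other genes of the same matrix turnover were taken from 7 lists of 58 genes, of which 44 were tested. The lists were chosen with earlier results of these data known. That choice could favour an excess over the shares of all genes, so nothing is read from the counts. At Pd3, 12 of them were called higher and 1 lower, at Pd7 9 and 4, and at Pd21 0 and 3. The shares of all genes were 5.37% and 4.33%, 8.57% and 7.53%, and 0.0822% and 4.83%. Median log2 fold changes were 0.28, 0.12 and -0.17, beside the medians of all genes given above. Of 13 tested substrates, 5 were called higher at Pd3, against the same 5.37%. Among these is Col1a1, which is also on the mesenchyme and stroma list. Col1a2, a chain of the collagen whose propeptide Adamts2 removes, went from 135 ± 22.9 to 299.5 ± 62.0 FPKM (1.14, SE 0.19, adjusted p = 0.0398). Fbn1, the main fibrillin of microfibrils, went from 15.2 ± 1.58 to 32.5 ± 0.92 FPKM (1.05, SE 0.10, adjusted p = 0.0234), and Fn1 (fibronectin) from 14.2 ± 1.69 to 25.8 ± 4.52 FPKM (0.81, SE 0.15, adjusted p = 0.0492). Vcan, the versican core protein cut by several ADAMTS proteases, went from 4.25 ± 1.27 to 18.7 ± 12.9 FPKM at Pd3 (1.72, SE 0.46, adjusted p = 0.101). At Pd7 Vcan went from 18.3 ± 9.69 to 34.6 ± 6.15 FPKM (0.98, SE 0.30, adjusted p = 0.069), and Fn1 was also called higher (0.61, SE 0.23, adjusted p = 0.111). Col1a2 (0.33, SE 0.23) and Fbn1 (0.11, SE 0.17) were not called at Pd7. Of the 13 tested substrates, 3 were called higher and 1 lower at Pd7, against 8.57% and 7.53% of all genes.

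Among other proteases and regulators, Plau, the urokinase-type plasminogen activator, was called higher at Pd3 (0.94, SE 0.30, adjusted p = 0.141) and at Pd7, from 23.9 ± 8.00 to 61.5 ± 9.98 FPKM (1.36, SE 0.22, adjusted p = 0.011). Spock2, a proteoglycan of the testican family, was called higher on both days as well, from 4.64 ± 0.17 to 13.3 ± 3.89 FPKM at Pd3 (1.30, SE 0.20, adjusted p = 0.0348) and from 9.63 ± 5.05 to 33.6 ± 2.68 FPKM at Pd7 (1.82, SE 0.31, adjusted p = 0.0118). Htra3 and Pcsk5, a serine protease and a proprotein convertase, were also called higher on both days. The convertase Pcsk6 was called lower at Pd7 (-0.71, SE 0.13, adjusted p = 0.0137). So were Adam12 (-0.71, SE 0.19), Ctss (-0.72, SE 0.20) and Hapln1 (-0.64, SE 0.20) on that day. Lcn2 was the 1 gene called lower at Pd3 (-2.18, SE 0.54, adjusted p = 0.0847). At Pd21 the 3 genes called lower were Adam8 (-2.63, SE 0.36, adjusted p = 0.0118), a shedding protease of leukocytes and other cells, Lcn2 (-2.61, SE 0.43, adjusted p = 0.0237), a partner of Mmp9, and Fn1 (-0.83, SE 0.21, adjusted p = 0.147). The oviduct and surface epithelium marker sums given above did not overlap between the same libraries, while the adipocyte sums did. Their part was not tested.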

How the data were processed

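Poly-A RNA of whole ovaries was sequenced for the authors by a company, as stranded libraries, 3 per diet and day. The authors deposited 1 FPKM value per gene symbol and library. The submitters' processing notes name FastQC 0.11.9, Trimmomatic 0.39, STAR 2.7.9a, featureCounts 2.0.1, DESeq2 1.36.0 and GRCm38, without their roles, and some symbols in the table are newer than that build's RefSeq annotation, so no coordinates were assigned to the measured genes. The unit was read from the values, since 1 length per gene and 1 factor per library gave whole fragments, within 0.05 fragment, for 99.989% of 27294 genes (those above 0 in 3 or more libraries). Depth was 33630487 to 39399184 fragments per library, and counting error is small beside the spread between libraries except for genes near 0. All 18 libraries were mapped to groups by their labels, and no 2 held identical values.

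Diets were compared within a day on log2(FPKM + 1) with limma 3.58.1 in R 4.3.3, with a variance trend, with Benjamini-Hochberg adjustment over 14607 genes, each at 1 FPKM or more in 3 or more libraries. Changes with age and differences of the diet effect between days were fitted on all 18 libraries. Tables, promoter searches and figures used matplotlib 3.10.9, pandas 2.3.3 and numpy 2.4.6 in Python 3.11.15. The members, role classes, marker lists and pathway lists were chosen with earlier results of these data known. Genes named were members called on at least 1 day, or with an adjusted p under 0.05 in the F1-Control age comparison or a difference between days, the Timp genes and the 3 most abundant members of each role class. A few others are named as values. Alternatives were a filter within the days compared, no filter, a pseudocount of 0.1, median-ratio scaling, voom on recovered fragments, other samples in the fit, the replicate number as a block, the adjusted p as threshold, and each library left out in turn.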

Additional observations from a re-analysis of the deposited data

Results flagged for a closer look

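The diet effect had an adjusted p under 0.05 for a difference between days in 5 members, by limma's test of the difference in 1 model of the 18 libraries, adjusted over all genes. Between Pd21 and Pd3 the effect changed by -1.53 for Mmp2 (SE 0.30, adjusted p = 0.00623), -1.03 for Adamts2 (SE 0.23, adjusted p = 0.0141), -1.35 for Adamts12 (SE 0.37, adjusted p = 0.0467), -1.75 for Adamtsl2 (SE 0.48, adjusted p = 0.0472) and -2.82 for Timp4 (SE 0.38, adjusted p = 0.000205), all on the log2(FPKM + 1) scale. With 1 library left out, the adjusted p for Pd21 against Pd3 stayed under 0.05 in 12 of 12 fits for Mmp2, 11 for Adamts2, 4 for Adamts12 and 3 for Adamtsl2. In the first 4 genes all 3 F1-HHcy libraries were above all F1-Control libraries at Pd3, and the groups overlapped at Pd21. These 4 genes were picked by a test on the same libraries, so this adds no support. Of all genes, 27.9% did not overlap at Pd3 and 10.6% at Pd21. For Timp4 the effect also changed between Pd21 and Pd7, by -2.91 (SE 0.38, adjusted p = 0.000152). Timp4 passed the filter only through its 3 F1-Control libraries of Pd21, so a difference with Pd21 was favoured and its p-values support nothing. In its case the groups overlapped at Pd3 and Pd7 and did not overlap at Pd21. Pd21 is a batch of its own, so age and batch cannot be told apart in these differences. The oviduct and multiciliated, adipocyte and surface epithelium markers that differed at Pd21, and the mesenchyme and stroma markers that differed at Pd3, are given with the results, and their part was not tested.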

How the results depend on the processing

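Of 51 results for single genes, 333 of 352 values under alternatives that left out no library kept their direction and side of the threshold, 17 lost the call or the adjusted threshold, 2 gained it and 0 reversed, and of 342 fits without 1 library the numbers were 304, 35, 3 and 0. Members called higher at Pd3 numbered 5, against 9 with a pseudocount of 0.1, 10 with voom and 3 with the adjusted p as threshold (the fold threshold kept, here and below), and those called lower 3, against 1 without a filter, 2 with the filter within the days compared and 0 with the adjusted p. At Pd7 the adjusted p left 2 of 5 higher and 2 of 4 lower. At Pd21 the 2 lower members became 1 with the filter within the day or the adjusted p, and 4 with a pseudocount of 0.1 or voom. The adjusted p of Timp4 at Pd21 was 0.199 without a filter. With age, 5 members rose in F1-Control, against 8 with a pseudocount of 0.1 or voom, and in F1-HHcy 3 rose and 3 fell, against 0 and 2 with the adjusted p. For the difference of the diet effect between Pd7 and Pd3 the count was 0, against 1 with median-ratio scaling (Adamts8) or other samples in the fit (Mmp2). Between Pd21 and Pd3 it was 5, against 3 without a filter, with other samples in the fit or with the replicate block (Adamts12 and Adamtsl2 lost, adjusted p 0.0704 and 0.0755 with the block), and 2 with voom (Timp4 lost too, 0.153). Between Pd21 and Pd7 it was 1, against 3 with other samples in the fit and 0 with voom. With 1 library left out, the counts ranged from 4 to 7 (higher) and 0 to 4 (lower) at Pd3, 4 to 6 and 3 to 5 at Pd7, and 0 to 1 and 2 to 5 at Pd21, from 5 to 6 and 3 to 4 with age in F1-Control and 2 to 3 and 3 to 4 in F1-HHcy, and from 0 to 1, 2 to 7 and 1 to 2 for the 3 differences. The lowest counts came without F1-Control replicate 1 for members lower at Pd3 (0, and 1 without F1-Control replicate 3 or F1-HHcy replicate 1) and for Pd21 against Pd3 (2 without F1-Control replicate 1 of Pd3, 3 without replicate 2 of it, F1-HHcy replicate 1 or 2 of Pd3, F1-Control replicate 3 of Pd21 or F1-HHcy replicate 2 or 3 of Pd21). The single member for Pd7 against Pd3 came without F1-HHcy replicate 1 or 3 of Pd3, and the 2 for Pd21 against Pd7 without F1-Control replicate 1 of Pd21, F1-Control replicate 1 or 3 of Pd7 or F1-HHcy replicate 3 of Pd7. Replicate numbers did not pair the libraries (correlations of same-numbered deviations -0.314 to 0.0851), and with the replicate block Adamts10 was not called at Pd3, which left 4 members higher there, and the other diet counts did not change. The causes were not tested.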
